A study of Homo sapiens and Mus musculus with 12 samples.

Results

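Pan-neuronal differentiation genes are genes that a cell switches on when it leaves the progenitor state and becomes a neuron, whatever kind of neuron it becomes. The set described here holds 37 genes named by symbol. It was chosen with earlier results of these data known, so shares of its members beside all genes are descriptions only. All 37 were found among the 60675 gene identifiers of the human count table through the gene symbols of the authors' deposited table, and all 37 mouse orthologs were found among the 47729 identifiers of the mouse count table by their gene descriptions. The counts came from poly(A)-selected RNA of cortical organoids, which are floating aggregates of stem cells guided toward embryonic forebrain tissue. Human organoids were grown from H9, an established embryonic stem cell line, either WT or with NOTCH2NL knocked out by CRISPR/Cas9 (KO), and were taken at week 4 on day 28 in pools of 5 to 10 organoids. Both human groups received the same inhibitors (SB431542, Dorsomorphin, IWR-1-Endo and Cyclopamine, the last of these until day 24). Mouse organoids were grown from 46C embryonic stem cells carrying either an empty vector (EV) or the cDNA of the human NOTCH2NL-Sh_T197I (N2NL), and were taken on day 6 in pools of 16 organoids. There were 3 libraries in each of the 4 groups. Every library of a group carries the same line code (H9_WT_E2del19 for WT, H9_KO_E5del42 for KO, 46C_EV and 46C_N2NL), whose meaning the sources used here do not give, the del19 of the WT code included. So genotype or vector and cell line cannot be told apart, and the sources used here do not name the promoter of the mouse vectors. Nothing in the labels ties the 3 pools to separate cultures. Every p-value below sets the difference between groups against the spread between pools of the same line code. Some of that spread may be technical.

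Newborn neurons build long processes on a scaffold of neuron-specific tubulins, which doublecortin, tau and MAP2 stabilise and the stathmins help to take apart. Behind the growth cone they assemble neurofilaments, and they begin to make vesicle proteins before synapses form. Neuronal ELAVL, CELF and RBFOX3 proteins bind RNA and set splicing and stability. MYT1-family factors regulate transcription in young neurons, and the repressor REST keeps many neuronal genes off outside neurons. NOTCH2NL is a human-specific partial copy of the NOTCH2 receptor gene, and Notch signalling holds neural progenitors back from differentiation. The 2 comparisons ask how the neuronal genes stand when NOTCH2NL is absent from human organoids and when it is added to mouse organoids.

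A pair of the tubulin genes is hard to separate by reads, and their sequences are shown because both belong to the results below. The coding sequences of TUBB2A and TUBB2B (GENCODE 29, longest open reading frame) are 1338 bases each, differ at 25 bases and are 98.1% identical. The longest run without a difference is 725 bases, and 72.4% of the 50-base windows of either coding sequence occur in the other. Over the whole transcripts the share is lower, 60.3% for TUBB2A and 47.3% for TUBB2B. Bases 121 to 240 of the coding sequence, counted from the A of the start codon, hold 14 of the differences, in capitals.

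TUBB2A: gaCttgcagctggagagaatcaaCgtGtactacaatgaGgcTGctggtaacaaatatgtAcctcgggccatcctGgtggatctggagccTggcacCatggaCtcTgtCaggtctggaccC

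TUBB2B: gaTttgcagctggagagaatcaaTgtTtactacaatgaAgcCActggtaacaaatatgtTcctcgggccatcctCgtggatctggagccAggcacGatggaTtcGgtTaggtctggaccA

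Library totals ran from 15381409 to 16382938 counts in human and from 16781742 to 20960391 in mouse. A count of 0 allows a level of up to 0.183 to 0.199 CPM (read counts scaled to library size) in the human libraries and 0.142 to 0.178 CPM in the mouse libraries, at a floor of 3 counts that covers counting error only. Of all genes tested, the median log2 fold change was -0.00 in human and -0.01 in mouse. The labelled tissue was checked against its markers: LHX2, a homeobox gene of the telencephalon, stood between 122 and 333 CPM in the human libraries and between 70.7 and 116 CPM in the mouse libraries. The pluripotency gene POU5F1 was at 0 in 5 of the 6 human libraries, and at 110 to 145 CPM in all 6 mouse libraries, so the day 6 mouse aggregates still expressed a stem cell gene next to the neuronal genes.

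In week 4 human organoids, 5 of the 37 neuronal genes fell in KO and none rose: the tubulin genes TUBB3 and TUBB2A, the tau gene MAPT, the synaptic vesicle gene SYP and the membrane glycoprotein gene GPM6A. Their levels in KO were 0.696 to 0.785 of those in WT. The 5 are 13.5% of the members, and over all 16956 genes tested 3.19% fell and 2.31% rose (5.50% in either direction), by the edgeR quasi-likelihood test at a Benjamini-Hochberg adjusted p under 0.05. All 3 KO libraries lay below all 3 WT libraries for 10 members (27.0%, against 14.8% of all genes), and above them for 3 members, ELAVL4, SYN1 and MYT1L (8.11%, against 14.1%). The median log2 fold change of the 37 members was -0.13, with a range from -0.91 to 0.51, and 22 of the 37 (59.5%) were below 0, against 50.7% of all genes. At an unadjusted p under 0.05 stood 12 members, 10 of them lower, which is 32.4% of the members against 22.8% of all genes. DESeq2 called 9 members (8.31% of all genes), 8 lower (4.70%) and ELAVL4 higher, and the authors' deposited table also has 9 members under 0.05, against 7.38% of the genes it tests.

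In day 6 mouse organoids no neuronal gene passed the test. Of the members, 36 of the 37 (97.3%, against 51.7% of all genes) had a log2 fold change below 0 in N2NL against EV. Members moved together between libraries, so they do not count as independent observations. The edgeR quasi-likelihood test called 2 of 16682 genes in all (0.0120%), both higher. The median log2 fold change of the members was -0.23, from -0.58 to 0.20, and the only value above 0 was that of DPYSL5. All 3 N2NL libraries lay below all 3 EV libraries for 12 members (32.4%, against 5.31% of all genes), and above them for none (7.39% of all genes). Unadjusted p-values under 0.05 were found for 12 members (32.4%, against 7.45% of all genes), 11 of them lower (29.7%, against 2.34%). DESeq2 called 3 members lower, STMN2, GAP43 and NEFL, where it called 0.162% of all genes (0.0540% lower). The authors' deposited table has 6 members under 0.05, namely TUBB3, STMN2, STMN4, GAP43, DPYSL3 and NEFL, where 1.16% of the genes it tests are. In both species these are bulk values, and fewer neurons cannot be told apart from less RNA per neuron.

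**Figure D1:**
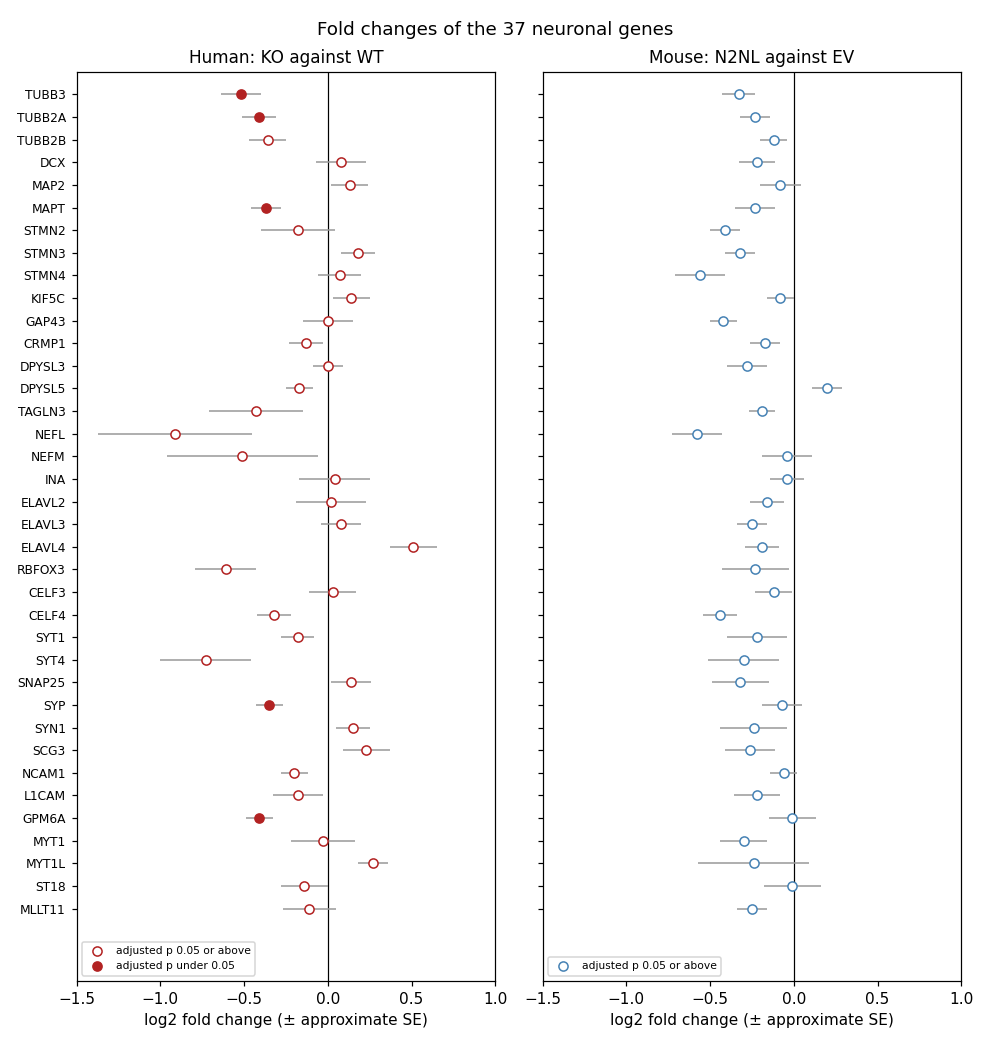
Log2 fold change of each of the 37 genes, with its approximate standard error as a bar, for KO against WT in human (left) and N2NL against EV in mouse (right); filled points passed the test. The 5 filled points are all in human and below 0, and in mouse every point except DPYSL5 lies below 0.

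The calls in human changed with the libraries in the fit. Without WT 1 the test called 7 members, without WT 2 it called 1, without WT 3 and without KO 1 it called 0, without KO 2 it called 2 and without KO 3 it called 1. GPM6A was called in 2 of these 6 fits and the other 4 genes in 1 each. The log2 fold changes moved little: TUBB3 ran from -0.57 to -0.48 over the 6 fits, TUBB2A from -0.47 to -0.33, MAPT from -0.44 to -0.31, SYP from -0.39 to -0.30 and GPM6A from -0.42 to -0.38. In mouse, STMN2, GAP43 and NEFL passed the test in the fit without EV 1, and no member did in the other 5.

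Among the genes of microtubules and their regulators, 3 of 10 fell in KO. TUBB3 (ENSG00000258947, GRCh38 chromosome 16, 89921392 to 89938761, plus strand), the beta tubulin used to stain neurons, stood at 24.9, 27.8 and 26.4 CPM in WT 1 to 3 and at 20.0, 17.2 and 17.8 CPM in KO 1 to 3. The groups did not overlap, and the log2 fold change was -0.52 ± 0.12 (approximate SE, edgeR quasi-likelihood, Benjamini-Hochberg adjusted p = 0.0316). TUBB3 shares 35.8% of its exon bases on the same strand with AC092143.1, a gene at 0 counts in all 6 libraries, so its level is uncertain; how reads from those bases were counted was not tested. In mouse, TUBB3 stood at 323, 393 and 437 CPM in EV and at 307, 323 and 290 CPM in N2NL. The highest N2NL library lay just below the lowest EV library, both 323 CPM after rounding, and the log2 fold change of -0.33 ± 0.10 did not pass the test (edgeR, Benjamini-Hochberg adjusted p = 0.456).

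TUBB2A (ENSG00000137267, chromosome 6, 3153669 to 3157526, minus strand) stood at 314, 378 and 339 CPM in WT and at 258, 238 and 280 CPM in KO. Every KO library was below every WT library, by a log2 fold change of -0.41 ± 0.10 (edgeR, Benjamini-Hochberg adjusted p = 0.0371). Its neighbour TUBB2B (ENSG00000137285, chromosome 6, 3224261 to 3231730, minus strand) had values of 1298, 1566 and 1528 CPM in WT and of 1139, 1021 and 1259 CPM in KO. These groups did not overlap either, but the log2 fold change of -0.36 ± 0.11 missed the threshold with edgeR (Benjamini-Hochberg adjusted p = 0.0805) and passed it with DESeq2 (adjusted p = 0.0326). Because reads may be split between the 2 genes, their sum is also given: 1612, 1944 and 1867 CPM in WT and 1397, 1259 and 1539 CPM in KO, again without overlap. In mouse the sum was 490, 545 and 561 CPM in EV and 497, 502 and 460 CPM in N2NL, and the groups overlapped. Mouse TUBB2B alone stood at 454, 505 and 519 CPM in EV and at 462, 468 and 428 CPM in N2NL.

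TUBB2A, TUBB2B, TUBB3 and SYP had an entry among the RefSeq promoter sequences (GRCh38.p14), which cover 28 of the 37 members. These 4 of the 10 members whose KO libraries all lay below their WT libraries are shown, and were chosen after their values were seen. GPM6A and ELAVL4 were chosen too, but their stretches outside exons, of 0 and 43 bases, fell under the minimum of 100 for printing. DPYSL5, RBFOX3 and CELF4 also have an entry, which is not printed. The bases before the first start that RefSeq lists are shown, cut to the part that lies in no exon of GENCODE 29. For TUBB3, which has 2 starts listed, and for TUBB2B that start lies inside the gene span of GENCODE 29 given above, so both stretches are within the annotated gene. Capitals mark GGGCGG on either strand, the box bound by SP1-family factors: the stretch of TUBB2A holds 5, that of SYP 1, and those of TUBB3 and TUBB2B none. The whole 250 bases hold 5 for TUBB2A, 4 for SYP, 1 for TUBB2B and 0 for TUBB3. The coordinates are chr16:89921675-89921850 (plus strand) for TUBB3, chr6:3157545-3157794 (minus) for TUBB2A, chr6:3227736-3227903 (minus) for TUBB2B and chrX:49200260-49200443 (minus) for SYP.

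TUBB3: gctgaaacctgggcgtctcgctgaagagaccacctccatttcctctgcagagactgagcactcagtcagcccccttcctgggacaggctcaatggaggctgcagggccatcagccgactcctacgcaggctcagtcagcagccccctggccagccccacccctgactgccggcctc

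TUBB2A: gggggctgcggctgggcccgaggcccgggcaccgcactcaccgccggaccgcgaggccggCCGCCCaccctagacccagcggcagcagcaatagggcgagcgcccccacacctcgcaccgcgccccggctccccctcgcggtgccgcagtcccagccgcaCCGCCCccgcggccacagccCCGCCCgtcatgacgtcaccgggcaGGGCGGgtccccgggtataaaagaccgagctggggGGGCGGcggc

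TUBB2B: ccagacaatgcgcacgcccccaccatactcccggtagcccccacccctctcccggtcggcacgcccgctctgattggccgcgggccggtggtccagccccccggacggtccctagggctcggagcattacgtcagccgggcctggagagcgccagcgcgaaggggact

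SYP: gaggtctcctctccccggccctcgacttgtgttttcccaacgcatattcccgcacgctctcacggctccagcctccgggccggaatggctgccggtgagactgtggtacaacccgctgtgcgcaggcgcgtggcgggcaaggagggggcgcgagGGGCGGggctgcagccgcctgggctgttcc

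Over the 250 bases before the start of every gene listed, GGGCGG on either strand was in 42.3% of 27305 windows and in 12 of the 28 member windows. The E-box CAGCTG, a sequence that proneural factors can bind, was in 13.8% of all windows and in 6 of the 28, and the E-box CAGATG in 12.2% and in 5. TATAAA was in 11.1% of all windows and in 4 of the 28. The median GC content of the windows was 61.4% for the members and 58% for all genes.

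MAPT (ENSG00000186868, chromosome 17, 45894382 to 46028334, plus strand) encodes tau, which binds along axonal microtubules. It stood at 364, 433 and 416 CPM in WT and at 301, 311 and 327 CPM in KO, with every KO library below every WT library. The log2 fold change was -0.37 ± 0.09 (edgeR, Benjamini-Hochberg adjusted p = 0.0404), and in mouse it was -0.23 ± 0.12, which missed the threshold. MAP2, the related protein of dendrites, had a human log2 fold change of 0.13 ± 0.11, with an approximate 95% interval from -0.08 to 0.35. Doublecortin (DCX), which marks migrating young neurons, had 876, 1131 and 1032 CPM in WT and 1060, 855 and 1293 CPM in KO. These values overlapped, and the interval of the log2 fold change ran from -0.23 to 0.38. KIF5C, a motor that carries cargo along axons, had a human log2 fold change of 0.14 ± 0.11.

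The stathmins bind tubulin and destabilise microtubules, and all 3 were lower in every N2NL library in mouse. Human STMN2 stood at 773, 1109 and 1111 CPM in WT and at 849, 670 and 1117 CPM in KO, and the spread within each group was larger than the distance between the group means. Human STMN3 and STMN4 had log2 fold changes of 0.18 ± 0.10 and 0.07 ± 0.13, and none of the 3 stathmins passed the test in human. Mouse STMN2 stood at 98.4, 126 and 121 CPM in EV and at 83.6, 89.2 and 87.2 CPM in N2NL. All N2NL libraries were below all EV libraries, with a log2 fold change of -0.41 ± 0.09 (edgeR, Benjamini-Hochberg adjusted p = 0.222; DESeq2, adjusted p = 0.0455). Mouse STMN4 had 17.3, 22.4 and 23.5 CPM in EV and 11.7, 15.9 and 15.4 CPM in N2NL, a log2 fold change of -0.56 ± 0.15 without overlap (edgeR, Benjamini-Hochberg adjusted p = 0.342). Mouse STMN3 had a log2 fold change of -0.32 ± 0.09. Of the 10 microtubule genes, all 10 were below 0 in mouse and 5 of 10 in human.

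**Figure D2:**
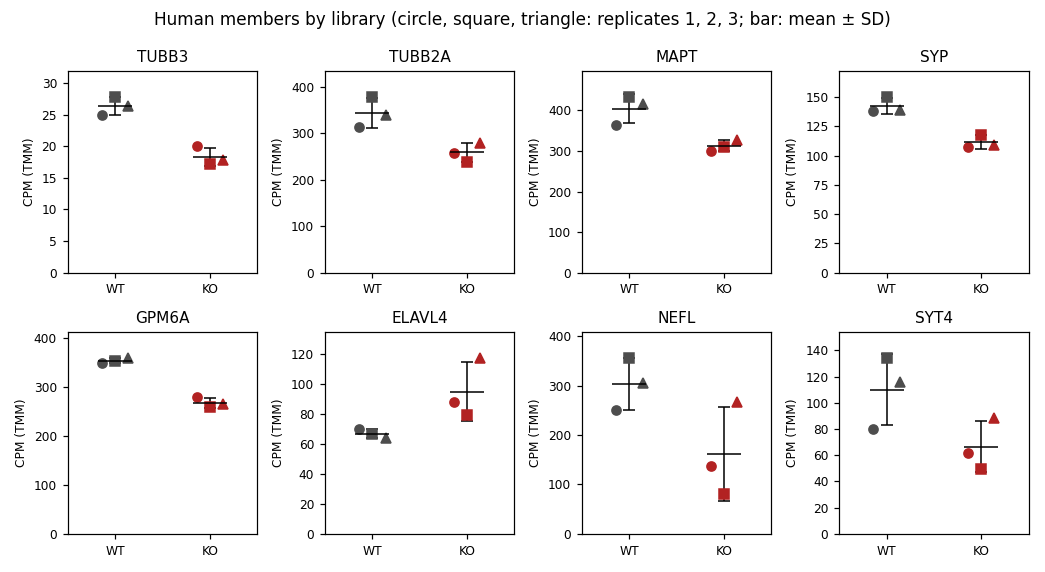
CPM (linear axis from 0) of 8 human genes in each WT and KO library, with the group mean and SD as a bar. TUBB3, TUBB2A, MAPT, SYP and GPM6A are lower in all 3 KO libraries, ELAVL4 is higher in all 3, and NEFL and SYT4 overlap between the groups.

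Of the 5 growth cone and actin genes, none passed the test in either species by edgeR, where unadjusted p-values under 0.05 numbered 0 in human and 3 in mouse and DESeq2 called 0 and 1. GAP43, a membrane phosphoprotein of growing axon tips, gave the lowest p of all members in mouse. It stood at 111, 119 and 125 CPM in EV and at 82.7, 89.4 and 93.1 CPM in N2NL, without overlap. The log2 fold change was -0.42 ± 0.08 (edgeR quasi-likelihood, unadjusted p = 6.98e-05, Benjamini-Hochberg adjusted p = 0.116), and DESeq2 gave an adjusted p of 0.00542. Human GAP43 averaged 547 ± 89.4 CPM in WT against 546 ± 93.2 in KO (SD, n = 3), and the approximate 95% interval of its log2 fold change ran from -0.30 to 0.29.

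The collapsin response mediators CRMP1, DPYSL3 and DPYSL5 relay guidance signals to the cytoskeleton. CRMP1 stood at 1099, 1371 and 1321 CPM in WT and at 1126, 1100 and 1243 CPM in KO, which overlapped. DPYSL3 stood at 1329, 1394 and 1390 CPM in WT and at 1421, 1253 and 1451 CPM in KO, with a log2 fold change of 0.00 ± 0.09 and an interval from -0.17 to 0.18. Human DPYSL5 was lower in every KO library, by a log2 fold change of -0.17 ± 0.08 that missed the threshold (edgeR, Benjamini-Hochberg adjusted p = 0.249). Mouse DPYSL5 went the other way from the remaining 36 genes: 134, 158 and 164 CPM in EV and 155, 183 and 186 CPM in N2NL. These groups overlapped, and the log2 fold change of 0.20 ± 0.09 missed the threshold (edgeR, Benjamini-Hochberg adjusted p = 0.668). TAGLN3, an actin-binding protein of neurons, had a human log2 fold change of -0.43 ± 0.28 and a mouse one of -0.19 ± 0.08, the latter without overlap.

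The 3 intermediate filament genes encode the subunits of the axon's neurofilaments, and in KO a pair of them varied most of all members between libraries. Human NEFL, the light chain, stood at 250, 355 and 306 CPM in WT and at 137, 81.4 and 266 CPM in KO. KO 3 lay inside the WT range and the other KO libraries below it, so the lowest fold change of all 37 members (log2 -0.91 ± 0.46) did not pass the test (edgeR, Benjamini-Hochberg adjusted p = 0.325). Without KO 3 the log2 fold change was -1.47 and passed at an adjusted p of 0.0498. Human NEFM, the medium chain, had 275, 421 and 364 CPM in WT and 226, 126 and 392 CPM in KO, with the same order of the KO libraries. Within KO the coefficient of variation was 58.7% for NEFL and 54.3% for NEFM, where the median over the members was 11.8%. NEFM shares 38.9% and NEFL 11.3% of exon bases with a gene on the opposite strand, and the sources used here do not say whether the counting used strand.

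Mouse NEFL stood at 86.1, 113 and 122 CPM in EV and at 59.3, 75.5 and 81.0 CPM in N2NL. The groups did not overlap, and the log2 fold change was -0.58 ± 0.15, the lowest of the mouse members (edgeR, Benjamini-Hochberg adjusted p = 0.456; DESeq2, adjusted p = 0.0168). The authors' deposited table gives mouse NEFL an adjusted p of 1.72e-08. Mouse NEFM and INA, the alpha-internexin gene, were each at a log2 fold change of -0.04, with intervals from -0.33 to 0.24 and from -0.23 to 0.15.

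**Figure D3:**
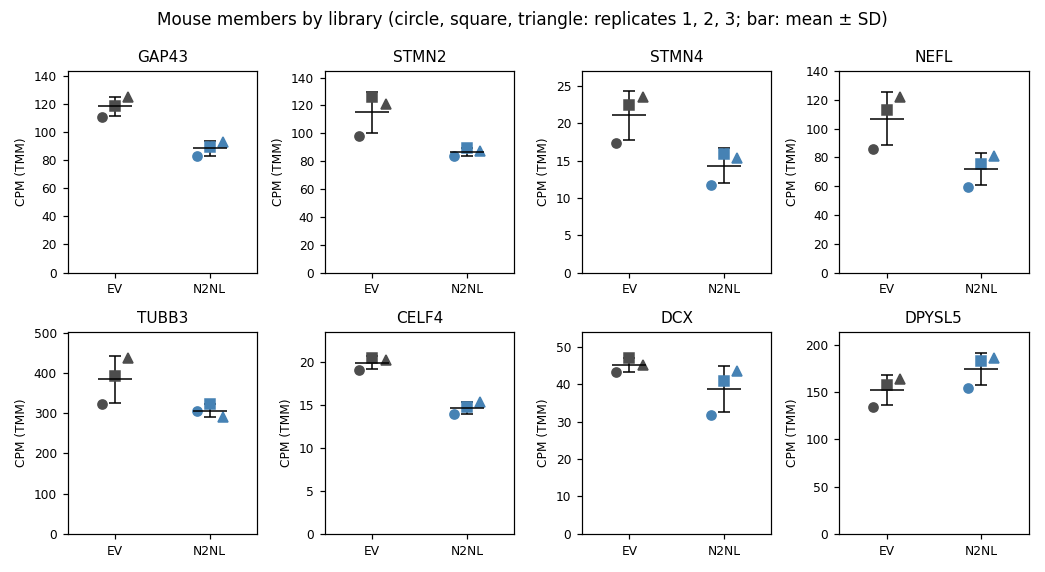
CPM (linear axis from 0) of 8 mouse genes in each EV and N2NL library, with the group mean and SD as a bar. GAP43, STMN2, STMN4, NEFL and CELF4 are lower in all 3 N2NL libraries, and DPYSL5 is the 1 gene of the 8 with a higher N2NL mean.

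The RNA-binding genes held the human member that was called higher by DESeq2. ELAVL4, a neuronal Hu protein that stabilises transcripts, stood at 69.8, 66.5 and 64.1 CPM in WT and at 88.2, 79.1 and 117 CPM in KO. Every KO library was above every WT library, and the log2 fold change of 0.51 ± 0.14 just missed the edgeR threshold (Benjamini-Hochberg adjusted p = 0.0621) and passed with DESeq2 (adjusted p = 0.0147). Its relatives ELAVL2 and ELAVL3 had human log2 fold changes of 0.02 ± 0.21 and 0.08 ± 0.12. RBFOX3, the splicing factor detected by the NeuN antibody in mature neurons, stood at 13.5, 14.6 and 13.9 CPM in WT and at 8.39, 11.4 and 7.77 CPM in KO. The groups did not overlap, and the log2 fold change of -0.61 ± 0.18 missed the threshold with edgeR (Benjamini-Hochberg adjusted p = 0.0741) and passed with DESeq2 (adjusted p = 0.0461).

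CELF4, a regulator of neuronal translation and splicing, was lower in every KO library, with means of 41.7 ± 2.58 CPM in KO and 51.9 ± 4.92 in WT (SD, n = 3), and missed the threshold (edgeR, Benjamini-Hochberg adjusted p = 0.106). Mouse CELF4 stood at 19.0, 20.4 and 20.2 CPM in EV and at 13.9, 14.7 and 15.3 CPM in N2NL. With TUBB3 and TUBB2A, it is 1 of 3 members whose groups did not overlap and were lower in both species. Such members numbered 10 in human and 12 in mouse. The share over all genes in both species was not computed, so the 3 are not read as agreement between species. The mouse log2 fold change was -0.44 ± 0.10 (edgeR, Benjamini-Hochberg adjusted p = 0.259). CELF3 had log2 fold changes of 0.03 in human and -0.12 in mouse. In mouse all 6 RNA-binding genes were below 0, with ELAVL3 and CELF4 below in every N2NL library, while in human 4 of 6 were above 0.

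Of the 6 genes of synaptic and secretory vesicles, SYP fell in KO. SYP (ENSG00000102003, chromosome X, 49187804 to 49200259, minus strand) encodes synaptophysin, an abundant membrane protein of synaptic vesicles. It stood at 138, 150 and 139 CPM in WT and at 107, 118 and 109 CPM in KO, without overlap, and the log2 fold change was -0.35 ± 0.08 (edgeR, Benjamini-Hochberg adjusted p = 0.0338). The vesicle protein gene SYT4 stood at 80.4, 134 and 116 CPM in WT and at 61.7, 49.8 and 88.3 CPM in KO, where KO 3 was above WT 1. Its log2 fold change of -0.73 ± 0.27 missed the threshold with edgeR (Benjamini-Hochberg adjusted p = 0.191) and passed with DESeq2 (adjusted p = 0.0130). SYT1, the calcium sensor of fast transmitter release, had a log2 fold change of -0.18 ± 0.10. SNAP25, a membrane fusion protein, and SCG3, a granin of dense-core vesicles, had log2 fold changes of 0.14 ± 0.12 and 0.23 ± 0.14, neither past the threshold. In mouse the 6 genes were at 2.39 to 23.4 CPM, all 6 had log2 fold changes below 0 (from -0.32 to -0.07) and the groups of each overlapped.

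SYN1, which tethers vesicles to actin, stood at 35.4, 38.2 and 40.6 CPM in WT and at 41.0, 41.5 and 44.5 CPM in KO, above WT in every library by a log2 fold change of 0.15 ± 0.10 that missed the threshold (edgeR, Benjamini-Hochberg adjusted p = 0.388). The 250 bases before its start hold the left part of the element bound by REST, TTCAGCACC (0.3% of all 27305 windows, 1 of 28 member windows), with GGACAG 2 bases after it, both in capitals. GGACAG alone is in 17.1% of all windows and in 7 of the 28, and the longer right part searched, GGACAGC, is in 4.78% and in 1 of the 28, GAP43, not in SYN1. The stretch is chrX:47620051-47620105 of GRCh38.p14, minus strand, and is shown because it is the only member window with the left part.

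SYN1: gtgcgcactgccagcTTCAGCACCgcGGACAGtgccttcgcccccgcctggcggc

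REST itself stood at 32.3, 23.9 and 29.3 CPM in WT and at 31.1, 26.5 and 30.4 CPM in KO, and at 72.8 to 90.8 CPM in the mouse libraries. Its log2 fold changes of 0.04 ± 0.13 in human and 0.07 ± 0.09 in mouse did not pass the test.

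Of the 3 adhesion and membrane genes, 1 fell in KO. GPM6A (ENSG00000150625, chromosome 4, 175632934 to 176002664, minus strand), a glycoprotein of the neuronal surface that promotes filopodia, had narrow groups: 349, 353 and 358 CPM in WT against 279, 258 and 265 CPM in KO. The gap between the lowest WT and the highest KO library was wider than the range of either group, and the log2 fold change was -0.41 ± 0.08 (edgeR, Benjamini-Hochberg adjusted p = 0.0158). In mouse GPM6A gave 25.1, 24.1 and 21.7 CPM in EV and 17.9, 25.6 and 27.3 CPM in N2NL, with a log2 fold change of -0.01 ± 0.14. The neural cell adhesion gene NCAM1 was lower in every KO library (511 ± 33.7 CPM against 587 ± 14.7 in WT, SD, n = 3), with a log2 fold change of -0.20 ± 0.08 that missed the threshold. L1CAM, an adhesion molecule of axon bundles, had a log2 fold change of -0.18 ± 0.15 in human and -0.22 ± 0.14 in mouse.

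Among the transcription factors, MYT1L, which represses non-neuronal programmes in neurons, stood at 47.4, 50.8 and 45.2 CPM in WT and at 60.3, 57.4 and 55.7 CPM in KO. Every KO library was above every WT library, and the log2 fold change of 0.27 ± 0.09 missed the threshold (edgeR, Benjamini-Hochberg adjusted p = 0.108). Its paralogs MYT1 and ST18 had human log2 fold changes of -0.03 ± 0.19 and -0.14 ± 0.14. MLLT11, a small cofactor, had one of -0.11 ± 0.16. In mouse, MYT1 (log2 -0.30 ± 0.14) and MLLT11 (-0.25 ± 0.09) were lower in every N2NL library, and MYT1L was at 1.05 to 2.10 CPM in all 6 libraries, where counting error is large.

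Per kilobase of exon (union of the exons in GENCODE 29), the human members spanned a wide range of levels. TUBB2B was highest at 667 ± 66.1 CPM per kilobase in WT and 519 ± 54.4 in KO (SD, n = 3), followed by STMN2 at 422 ± 82.4 in WT and GAP43 at 262 ± 42.9. CRMP1, TUBB2A, MLLT11, TAGLN3 and DPYSL3 came next, between 191 and 217 in WT, and did not differ from each other beyond their spread. GAP43 and CRMP1 also overlapped within their SDs. The lowest were MYT1L at 1.36 ± 0.0799, RBFOX3 at 1.42 ± 0.0584, ST18 at 1.94 ± 0.251 and TUBB3 at 5.95 ± 0.328 CPM per kilobase in WT. MYT1L and RBFOX3 were not apart beyond their SDs. The annotated exon union of MYT1L is 35151 bases, and a value per length over a union that no single transcript uses in full is an underestimate. Whether the exon bases that TUBB3 shares with another gene lower its value was not tested.

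**Figure D4:**
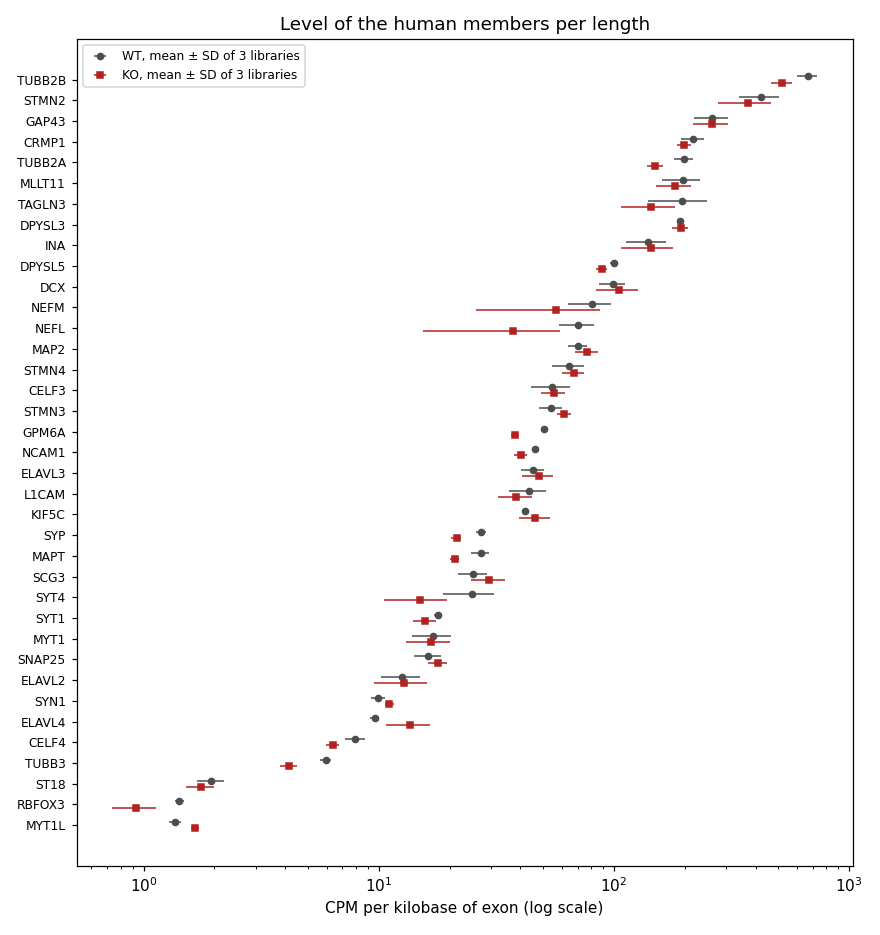
Level of each human gene in CPM per kilobase of exon (log axis) in WT and KO, mean ± SD of 3 libraries. The genes run from MYT1L at 1.36 to TUBB2B at 667 in WT, and the WT and KO points of GPM6A and TUBB3 stand apart by more than their bars.

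The members moved together between libraries of the same group. WT 1 had the lowest value of its group for 31 of the 37 genes and WT 2 the highest for 27. In KO, KO 2 was lowest for 32 genes and KO 3 highest for 27. Over all genes tested, WT 1 was lowest for 37.4%, KO 2 lowest for 37.4% and KO 3 highest for 35.4%. The summed level of the 37 genes was 12875, 15836 and 15102 CPM in WT 1 to 3 and 13346, 11600 and 15224 CPM in KO 1 to 3, which overlapped, and made up 1.16% to 1.58% of a library. NEFL, NEFM, TAGLN3 and SYT4 followed this library order with wide spreads, while GPM6A, NCAM1 and DPYSL5 varied little within their groups.

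In mouse the library numbered 1 was lowest in both groups: EV 1 for 27 of 37 genes and N2NL 1 for 30, against 37.7% and 41.8% of all genes. The summed level was 2353, 2677 and 2751 CPM in EV and 2116, 2366 and 2349 CPM in N2NL, or 0.212% to 0.275% of a library. EV 1 was thus below N2NL 2 in this sum. Without N2NL 1 the median log2 fold change of the members was -0.13 in place of -0.23. The median coefficient of variation of the members was 11.4% in WT, 11.8% in KO, 9.41% in EV and 12% in N2NL.

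**Figure D5:**
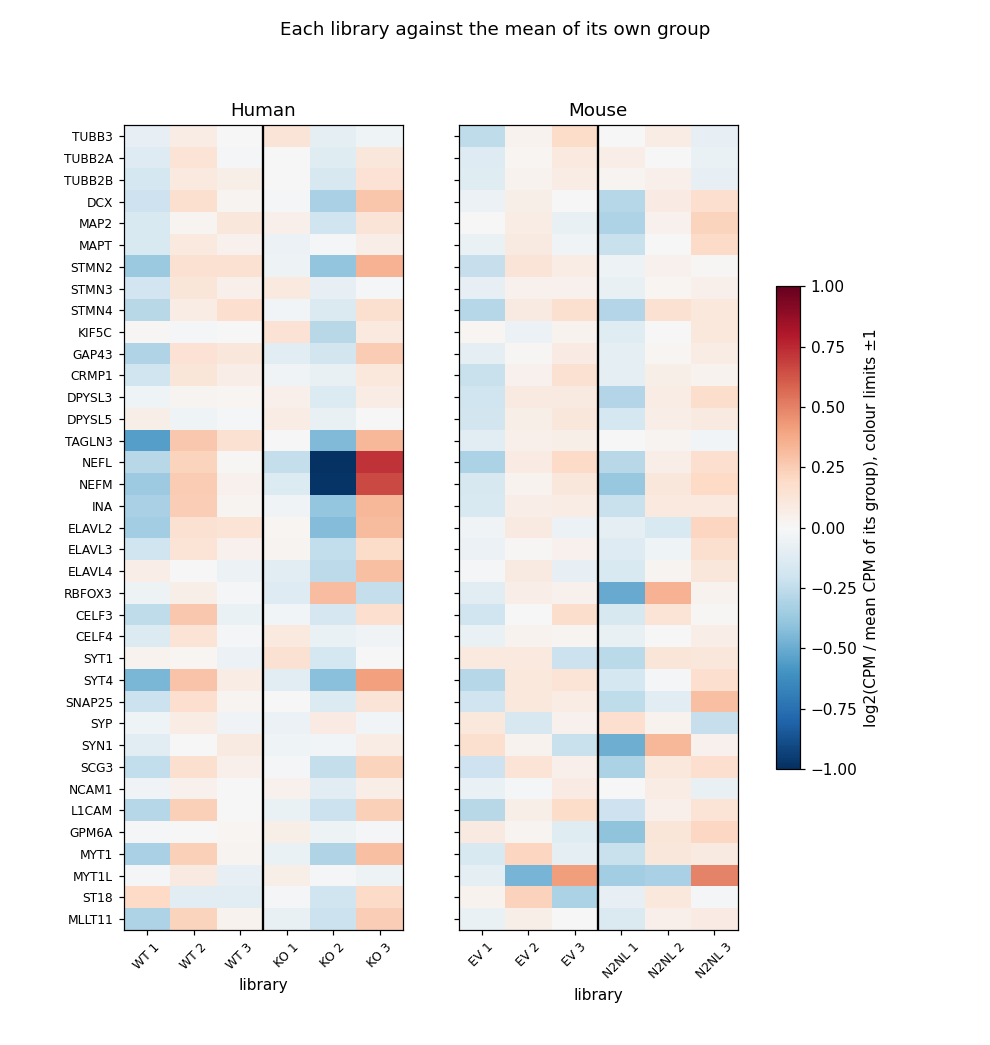
Log2 of each gene's CPM over the mean of its own group, by library, with colour limits of ±1 (red above the mean, blue below). WT 1, KO 2, EV 1 and N2NL 1 are mostly blue, being lowest in 31, 32, 27 and 30 of the 37 genes.

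Markers of dividing cells and of other cell types were read in the same libraries. The summed level of 7 proliferation genes was 1534, 931 and 1238 CPM in WT and 1623, 1493 and 1375 CPM in KO, so it was highest among WT libraries in WT 1, where the neuronal sum was lowest. The KO libraries did not show this: the proliferation sum was highest in KO 1 and the neuronal sum lowest in KO 2. Of the 7, CCNB1, a cyclin of mitosis, rose in KO. The 11 radial glia markers summed to 5342, 5370 and 5611 CPM in WT and to 5151, 4151 and 4853 CPM in KO, and 2 of them, NOTCH1 and TTYH1, fell. The list's median log2 fold change was 0.02, with 6 of the 11 above 0. The glutamate transporter gene SLC1A3 was higher in every KO library (118, 62.2 and 91.4 CPM in WT, 236, 159 and 200 CPM in KO), with an adjusted p of 0.0660 by edgeR (Benjamini-Hochberg) and 1.96e-06 by DESeq2. Of 7 markers of GABAergic ventral telencephalon that were tested, DLX1, DLX2, DLX5 and DLX6 rose, and the sum of the 9 listed was 77.8, 135 and 110 CPM in WT and 297, 287 and 452 CPM in KO. NKX2-1 was at 0 in all WT libraries and near 0 in KO. Of 10 telencephalon markers SIX3 rose, and the list's median log2 fold change was 0.28. The 8 markers of neural crest and peripheral neurons summed to 160, 393 and 270 CPM in WT and to 103, 74.7 and 201 CPM in KO. All 6 of them that were tested had a log2 fold change below 0, from -2.86 to -0.56 with a median of -1.14. Only PRPH among them passed the test, and SOX10 was at 0 or at most 0.191 CPM. The pluripotency gene TDGF1, the mesoderm and endoderm genes TBXT and SOX17 and the globin gene HBA1 were at 0 in all 6 human libraries. The part of these cell types in the fall of the 5 neuronal genes was not tested.

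The mouse marker lists had no gene past the edgeR test; DESeq2 called TTYH1, LHX2 and FEZF2 higher. Of 10 telencephalon markers, 9 were above 0 and 8 had an unadjusted p under 0.05, none of them lower, with a median log2 fold change of 0.36. LHX2 stood at 79.9, 70.7 and 72.7 CPM in EV and at 116, 102 and 94.8 CPM in N2NL. Within each group LHX2 was highest in the library numbered 1, in which most neuronal genes were lowest. The 10 telencephalon markers together did not follow LHX2: they summed to 622, 630 and 636 CPM in EV and to 704, 742 and 748 CPM in N2NL. The 8 markers of neural crest and peripheral neurons summed to 122, 164 and 169 CPM in EV and to 96.7, 125 and 146 CPM in N2NL. The sums of the 7 proliferation genes ran from 2218 to 2381 CPM over all 6 libraries, and overlapped between groups. Whether these differences bear on the neuronal genes was not tested.

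Other neuronal genes were read from lists of the same roles. Of 20 further cytoskeleton and transport genes, 2 fell in KO and none rose: TUBB4A, another neuronal beta tubulin (log2 -0.78 ± 0.13, edgeR, Benjamini-Hochberg adjusted p = 0.00924), and PRPH, the peripheral neurofilament protein (-2.86 ± 0.34, adjusted p = 0.00134). Of 24 further synaptic and secretory genes, 5 fell and none rose. Among them were the vesicle genes SYT11, at 296, 253 and 269 CPM in WT and 193, 180 and 185 CPM in KO, and VAMP2, at 383, 413 and 405 CPM in WT and 278, 270 and 293 CPM in KO, with SCG5 and SYN3. With 1 library left out, SYT11 was called in 6 of 6 fits and VAMP2 in 5. The median log2 fold change of this list was -0.25 in human and 0.01 in mouse.

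Of 15 further adhesion and membrane genes, 1 fell in KO, NRCAM, which anchors ankyrin at the axon (176, 212 and 203 CPM in WT and 124, 107 and 133 CPM in KO). None of the 12 tested of 13 further RNA-binding genes passed the test in human (edgeR; 2 at an unadjusted p under 0.05, both higher; 0 called by DESeq2). Of 23 proneural and cell cycle exit genes, GADD45G and ISL1 rose and BTG2 fell in KO, with a list median of -0.09. Of 15 Notch ligands and targets, JAG2, NOTCH1, NOTCH3 and HES4 fell and none rose. In mouse none of these 6 lists had a gene called by edgeR or DESeq2, and their medians ran from -0.15 to 0.02. Unadjusted edgeR p-values under 0.05 numbered 1 to 6 a list, where 7.45% of all genes had one. They included 6 of 20 tested proneural and cell cycle exit genes and 5 of 14 Notch genes. The authors' deposited table has CNTN2, NHLH2 and NOTCH2 under 0.05, at log2 fold changes (edgeR) of -0.56, -0.44 and 0.29. The medians in mouse for further cytoskeleton genes (-0.05), synaptic genes (0.01), adhesion genes (-0.15) and RNA-binding genes (-0.03) stood nearer to 0 than that of the 37 members, a difference that was not tested. A low median was not particular to the members. The 8 markers of neural crest and peripheral neurons had a mouse median of -0.27, with 7 of them below 0, against -0.23 for the members.

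The human and mouse comparisons share no library. Of the 37 genes, 21 had a log2 fold change below 0 in both, 15 were above 0 in human and below 0 in mouse, 1 (DPYSL5) was below 0 in human and above 0 in mouse, and none was above 0 in both. Across the 37 genes the fold changes had a Pearson correlation of 0.10 and a Spearman correlation of -0.03, given as a description, since genes of the same libraries are not independent. TUBB3, TUBB2A, MAPT, SYP and GPM6A, which fell in human, had mouse log2 fold changes of -0.33, -0.23, -0.23, -0.07 and -0.01. GAP43, STMN2 and NEFL, which DESeq2 called lower in mouse, had human log2 fold changes of -0.00, -0.18 and -0.91. None of these 3 passed the test in human.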

How the data were processed

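Per the labels' protocols, poly(A) RNA was sequenced from strand-specific Ion libraries. For each species the authors deposited raw counts of reads for every Ensembl gene, as whole numbers. They also deposited their own comparison, from which only adjusted p-values are printed, named as the authors'. The submitters' processing notes name GRCh38 and GRCm38 as builds and, without their roles, the tools HTSeq 0.6.1p1, DESeq2 2.11.39, STAR 2.4.0, Trimmomatic 0.36 and Bowtie2 2.3.3.1. The mouse table's summary lines (26.6% to 33.7% of reads aligned to several places, 5.77% to 6.50% outside genes) name no gene and were left out.

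Each species was fitted over all genes with edgeR 4.0.16 (R 4.3.3): filterByExpr, TMM factors, robust quasi-likelihood F test, Benjamini-Hochberg adjustment, called at 0.05. CPM uses TMM. The ± of a fold change is its size over the square root of F, and the 95% interval 1.96 of these; both are approximate. Alternatives were DESeq2 1.42.0, RLE factors, no scaling factors, no filter, a replicate block and leaving out each library. The scripts were tested on simulated counts. With 3 libraries a side, the smallest two-sided p of an exact permutation test is 0.1, so none was used.

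Members and lists were chosen with earlier results of these data known. Values of every library are given for members called in either species, for the 3 with the highest mean and the 3 with the largest fold change in each. DCX, STMN2, GAP43, NEFM, ELAVL4, SYN1 and MYT1L were added after their values were seen. Human coordinates and lengths are from GENCODE 29. Mouse genes were matched by gene description (HES4 had no match), with no mouse coordinates used here.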

Additional observations from a re-analysis of the deposited data

How the results depend on the processing

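The count of human members called (5) was the same with RLE factors and was 9 with DESeq2, 8 without the filter on low counts and 3 without scaling factors. Leaving out a library gave 0 to 7 human members (medians of -0.18 to -0.02, where the median with all libraries is -0.13) and 0 to 3 mouse members (medians of -0.28 to -0.13). Over all human genes the 932 calls became 1409 with DESeq2, 2155 without the filter and 224 to 1440 without a library. The 2 mouse calls became 27, 117 and 0 to 17. The mouse members, with 0 called, had 3 called with DESeq2 and 5 without the filter. The causes were not tested, though fits without a library have fewer samples. With a replicate block, 3 human members (MAPT, SYP and GPM6A, without TUBB3 and TUBB2A) and 2 mouse members (GAP43 and NEFL) were called, and 899 human and 21 mouse genes. No pairing of libraries by number is stated, and correlations of their deviations did not settle it. Same-numbered libraries had correlations of 0.216, -0.113 and 0.126 in human and 0.143, 0.016 and -0.005 in mouse. Those of differently numbered libraries ran from -0.331 to 0.277 in human and from -0.110 to 0.111 in mouse. Low mouse levels of vesicle genes and MYT1L limit what could be detected there, and 3 pools a group limit every test.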
